A study of Mus musculus with 8 samples.

Results

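The vertebrate brain is divided along its anterior to posterior axis by a small set of transcription factors, and 10 genes of that set are described here in mouse embryos whose fathers differed in *Eed* genotype. They were the forebrain and eye field genes *Otx2*, *Six3*, *Six6*, *Rax*, *Lhx2* and *Hesx1*, the genes of the midbrain-hindbrain boundary *En1*, *En2* and *Gbx2*, and the hindbrain gene *Egr2*. The members were chosen by name, and every non-control probe whose RefSeq accession belonged to 1 of them was taken. Each gene had 1 probe, so that the set comprised 10 of 55681 probes on the array, and 8 of the 10 passed the filter on dim probes and were tested. *Six6* and *En1* did not pass it. *En1* and *En2* were printed as 10 spots on each array and the other members as 1 spot.

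Single-colour Agilent expression arrays were hybridised with RNA from 8 individual embryos collected at embryonic day 8.5 (E8.5), on a mixed C57bl6/129 background. All 8 embryos were heterozygous for the hypomorphic allele Eedl7Rn5-1989SB. The allele reduces the activity of EED, 1 of the essential subunits of the histone methyltransferase Polycomb repressive complex PRC2, and all mothers were wild type. The father was homozygous for the allele in 4 embryos (HOM1 to HOM4 by replicate number) and heterozygous in the other 4 (HET1 to HET4), and the comparison asks whether low EED in the father was associated with altered expression in genetically matched offspring. HOM1, HOM2, HET1 and HET3 were female, and HOM3, HOM4, HET2 and HET4 were male. The study describes fewer sires than embryos in each group, so a father may stand behind more than 1 embryo, and p-values measure the spread between these embryos rather than between fathers. It also describes the homozygous and heterozygous sires as littermate brothers. The labels tie no embryo to a sire, so this pairing was not used in the fits. The arrays of each group lay on a slide of their own, and slide and father cannot be told apart.

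In these arrays 51.9% to 60.8% of spots were well above background, no spot was saturated, and signals correlated across probes at 0.988 to 0.993 within a father group and at 0.982 to 0.992 between groups. Markers of nerve cell precursors, somites, heart, primitive red cells and yolk sac endoderm, the tissues a whole embryo of this age holds, were all measured, with 10 of 10, 8 of 8, 8 of 8, 7 of 7 and 8 of 8 genes passing the filter. Of the trophoblast markers 6 of 8 passed and of the maternal decidua markers 7 of 8 passed. Whether these markers are limited to those tissues was not tested, so the counts do not by themselves show that such tissue was present. *Tpbpa* and *Prl3c1*, which define spongiotrophoblast and decidua respectively, were above background on 0 of 8 arrays. The placental hormone gene *Prl3d1* and the decidual gene *Prl8a2* were nevertheless well above background on all 8 arrays and differed widely between embryos, as given with the embryos below. Signals are on a log2 scale on which 0 is the 75th percentile of the array, so a difference of 1 is 2-fold. A level is given for the same probe across embryos only, since probes of different genes cannot be set against each other.

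At E8.5 the neural plate is closing and its regions are already fixed by transcription factors. OTX2 marks forebrain and midbrain and GBX2 the anterior hindbrain, and the line at which they meet and repress each other becomes the isthmus, a signalling centre where the Engrailed proteins EN1 and EN2 act with FGF8 and WNT1. Further forward, SIX3 and HESX1 keep the anterior neural plate free of WNT signalling, and RAX, SIX6 and LHX2 specify the eye field. EGR2, also known as KROX20, marks alternating hindbrain segments. Many such developmental regulators are classical PRC2 targets, with CpG-rich promoters that carry H3K27me3 in cells where the gene is silent. In RNA from a whole embryo, fewer cells of a brain region and less RNA per cell cannot be told apart.

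The promoters of *Hesx1* and *Six3*, the members with the largest father differences, and of *Gbx2*, the member with the narrowest interval of that difference, are shown for their CpG content, because PRC2 targets are often rich in CpG. The 250 bases before the start site are printed 5′ to 3′ on the strand of the gene, from RefSeq on build GRCm38.p6, with each CpG in capitals.
Hesx1, chr14:27000112-27000361, plus strand: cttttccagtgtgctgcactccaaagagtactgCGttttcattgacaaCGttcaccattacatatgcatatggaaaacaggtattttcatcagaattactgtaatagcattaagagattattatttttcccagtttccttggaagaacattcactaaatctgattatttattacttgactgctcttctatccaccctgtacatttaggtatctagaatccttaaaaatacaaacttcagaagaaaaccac
Six3, chr17:85620584-85620833, plus strand: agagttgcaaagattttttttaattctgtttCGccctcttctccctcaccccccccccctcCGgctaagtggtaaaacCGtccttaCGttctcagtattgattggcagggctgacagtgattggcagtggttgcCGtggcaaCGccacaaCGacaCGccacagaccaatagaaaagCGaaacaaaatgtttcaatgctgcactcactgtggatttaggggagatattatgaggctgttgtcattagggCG
Gbx2, chr1:89931177-89931426, minus strand: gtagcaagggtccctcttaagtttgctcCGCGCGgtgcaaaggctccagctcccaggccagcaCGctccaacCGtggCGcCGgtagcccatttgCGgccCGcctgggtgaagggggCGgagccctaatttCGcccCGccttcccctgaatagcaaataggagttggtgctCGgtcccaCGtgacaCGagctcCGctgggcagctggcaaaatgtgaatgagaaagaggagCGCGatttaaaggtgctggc
The *Hesx1* window held 2 CpG, the *Six3* window 10 and the *Gbx2* window 18, against a median of 6 over 32841 windows of the same length. *Hesx1* thus lay at the 23.9th percentile of all windows, *Six3* at the 63.3rd and *Gbx2* at the 79.3rd. Windows are described for 8 of the 10 members, 16 in all, several of which overlap, and none is given for *En2* or *Rax*. *En1* had 19 CpG and *Six6* 17, the 2 windows of *Lhx2* had 24 and 25, the 5 of *Egr2* had 15 to 26, and the 4 of *Otx2* had 6 to 14. The homeodomain core TAATTA, which reads the same on both strands, occurred in 2 of the 16 windows, both of *Otx2*, and in 4.84% of all windows. These are descriptions of sequence, and neither promoter occupancy nor methylation was measured in these embryos.

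No father difference passed the test in any of the 8 genes. At an adjusted p below 0.05 in limma, 0 of 8 genes were called in either direction, compared with 21% of all tested probes, and at the limits of the study's methods (adjusted p below 0.01 and at least 2-fold) 0 of 8 were called, compared with 1.27%. At an unadjusted p below 0.05 the count was again 0 of 8, compared with 34.8%. The background was somewhat lower when counted over 14592 named genes with 1 probe each, of which 17.6% passed that adjusted threshold. The HOM and HET embryos overlapped in all 8 genes, whereas the 2 groups did not overlap in 27.1% of tested probes. Of the 8 differences 5 were below 0 and 3 above, and their median was -0.06, compared with -0.02 over all tested probes and -0.05 over the named genes. The 95% interval excluded a 2-fold difference in either direction for 7 genes, the exception being *Hesx1*. The summed level of the 10 pan-neural markers, as log2, was 5.32 to 5.66 in HOM and 5.70 to 5.78 in HET embryos without overlap. The same sum of the 7 primitive erythroid markers did not overlap either, at 9.44 to 9.82 in HOM and 9.83 to 9.88 in HET embryos. Those of the somite, heart and yolk sac markers overlapped, so the separation was not particular to neural markers. The brightest probes weigh most in such sums, which do not measure amounts of tissue. The part of neural tissue in the values of the patterning genes was not tested.

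**Figure D1:**
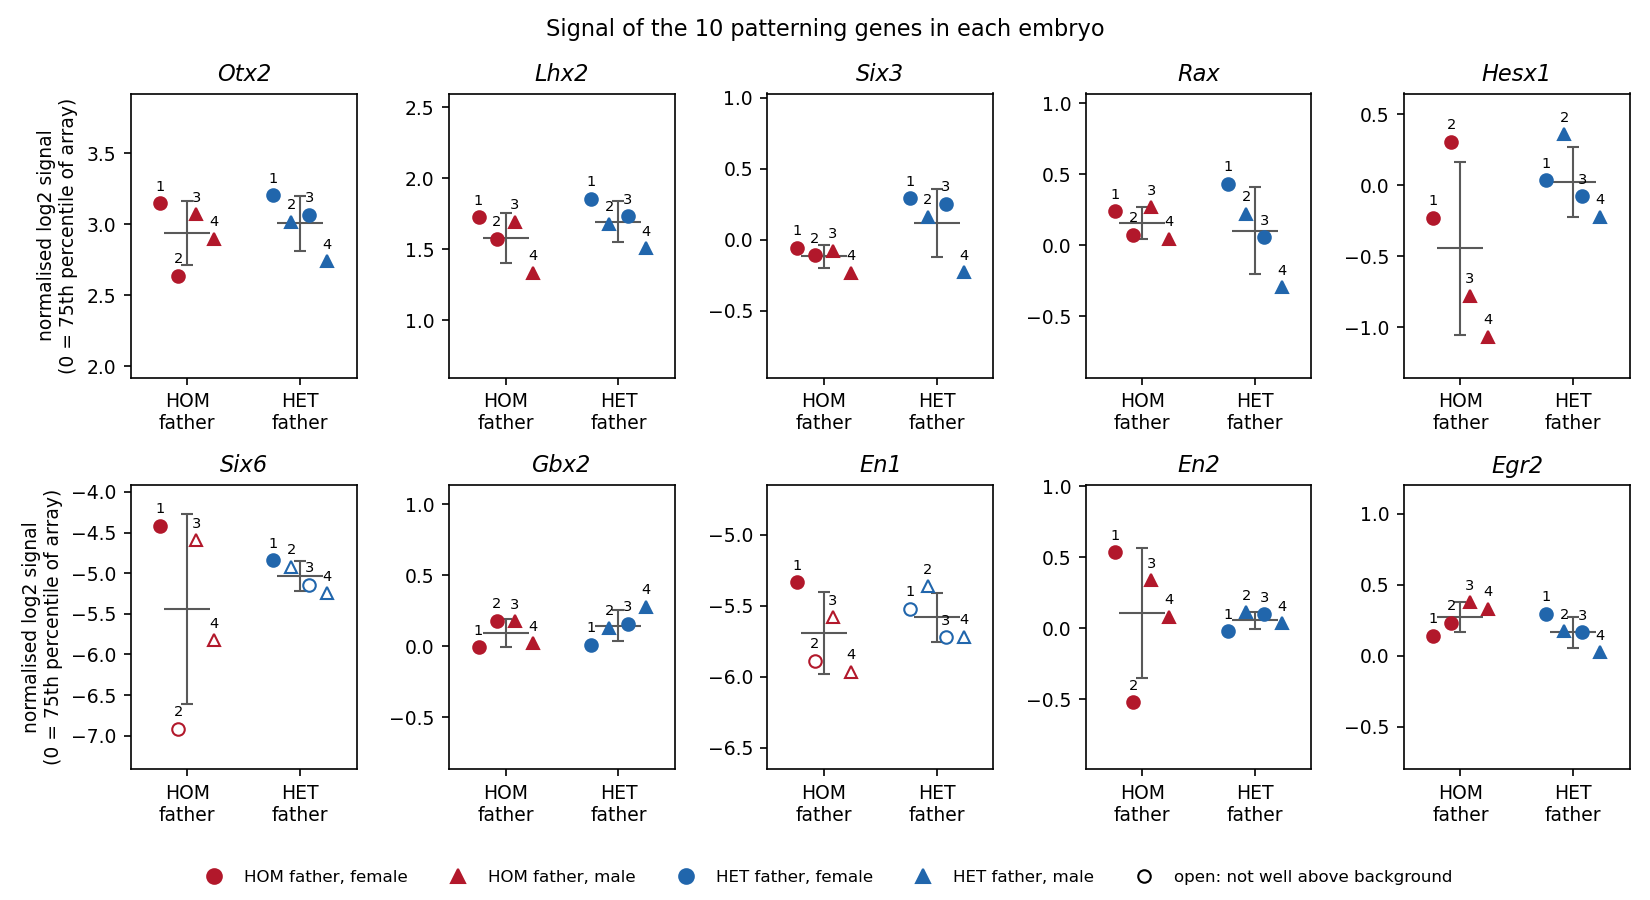
Normalised log2 signal (vertical axis, 0 is the 75th percentile of the array, the centre of the axis differs between genes) of each of the 10 genes in 4 embryos of HOM fathers (red) and 4 of HET fathers (blue), with circles for females, triangles for males, numbers for replicates, and lines for the mean and SD of a group. The 2 groups overlap in every gene, *En2* and *Hesx1* are spread more widely in HOM embryos, and open symbols in *Six6* and *En1* mark signals not well above background.

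Among the forebrain genes, *Otx2*, which is required for forebrain and midbrain, gave 3.15, 2.64, 3.07 and 2.90 in HOM1 to HOM4 and 3.20, 3.02, 3.07 and 2.74 in HET1 to HET4. HOM2 and HET4 were the lowest of the 8, and the remaining 6 embryos lay between 2.90 and 3.20. The group means were 2.94 ± 0.23 and 3.01 ± 0.19 (SD, n = 4 each), a difference of -0.07 with a 95% interval of -0.39 to 0.25 (limma, adjusted p = 0.761). *Lhx2*, a LIM homeobox gene needed for the eye and the cortex, measured 1.72, 1.57, 1.69 and 1.34 in HOM and 1.86, 1.68, 1.73 and 1.51 in HET embryos. Replicate 4 was lowest in both groups. The difference was -0.11, with an interval of -0.36 to 0.14 (limma, adjusted p = 0.504).

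*Six3*, which represses WNT targets in the anterior neural plate, gave -0.06, -0.11, -0.08 and -0.23 in HOM embryos and 0.29, 0.16, 0.25 and -0.23 in HET embryos. The 4 HOM embryos and HET4 were thus below 0 and HET1, HET2 and HET3 above it, so that HET4 alone made the groups overlap. The mean was -0.12 ± 0.08 in HOM and 0.12 ± 0.24 in HET embryos (SD, n = 4 each), a 1.18-fold lower level in HOM with an interval of the difference of -0.51 to 0.03 (limma, adjusted p = 0.193). Without HET4, singled out after its values were seen, the difference was -0.35 at an adjusted p of 0.0158 in limma. Because HET4 alone made the groups overlap, that p supports nothing by itself, and leaving out any other embryo gave no call. With arrays scaled to the median instead of the 75th percentile the difference was -0.43 at an adjusted p of 0.0376 in limma. Median scaling also moved the median of all tested probes from -0.02 to -0.21, so that relative to all probes the *Six3* difference was nearly the same under both scalings. *Six3os1*, the noncoding transcript divergent from *Six3*, gave -0.28, -1.18, -0.24 and -0.71 in HOM and -0.06, -0.35, -0.35 and -0.61 in HET embryos. Its difference of -0.26 did not pass the test (limma, adjusted p = 0.447), and its other probe was near background throughout, with 0 of 8 arrays above it.

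*Rax*, the eye field homeobox gene, gave 0.24, 0.08, 0.27 and 0.05 in HOM and 0.43, 0.22, 0.06 and -0.30 in HET embryos. The HET embryos spanned both the highest and the lowest value of the 8, with an SD of 0.31 compared with 0.11 in HOM embryos. The difference of 0.05 had an interval of -0.29 to 0.40 (limma, adjusted p = 0.832). *Six6*, a second eye field gene that is also used in the pituitary, was well above background in HOM1 and HET1 alone, at -4.42 and -4.84, and no difference is given for it.

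*Hesx1*, a homeobox repressor of the anterior neural plate and pituitary primordium, had the largest difference and the widest interval of the set. It measured -0.23, 0.30, -0.78 and -1.07 in HOM1 to HOM4 and 0.03, 0.36, -0.08 and -0.22 in HET1 to HET4. HOM3 and HOM4 lay below all other embryos, whereas HOM2 was second highest of the 8. The mean was -0.44 ± 0.61 in HOM and 0.02 ± 0.25 in HET embryos (SD, n = 4 each), a 1.38-fold lower level in HOM with an interval of the difference of -1.14 to 0.21 (limma, adjusted p = 0.296). The SD within groups, 0.46, was at the 92.3rd percentile of all tested probes, whose median was 0.13.

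**Figure D2:**
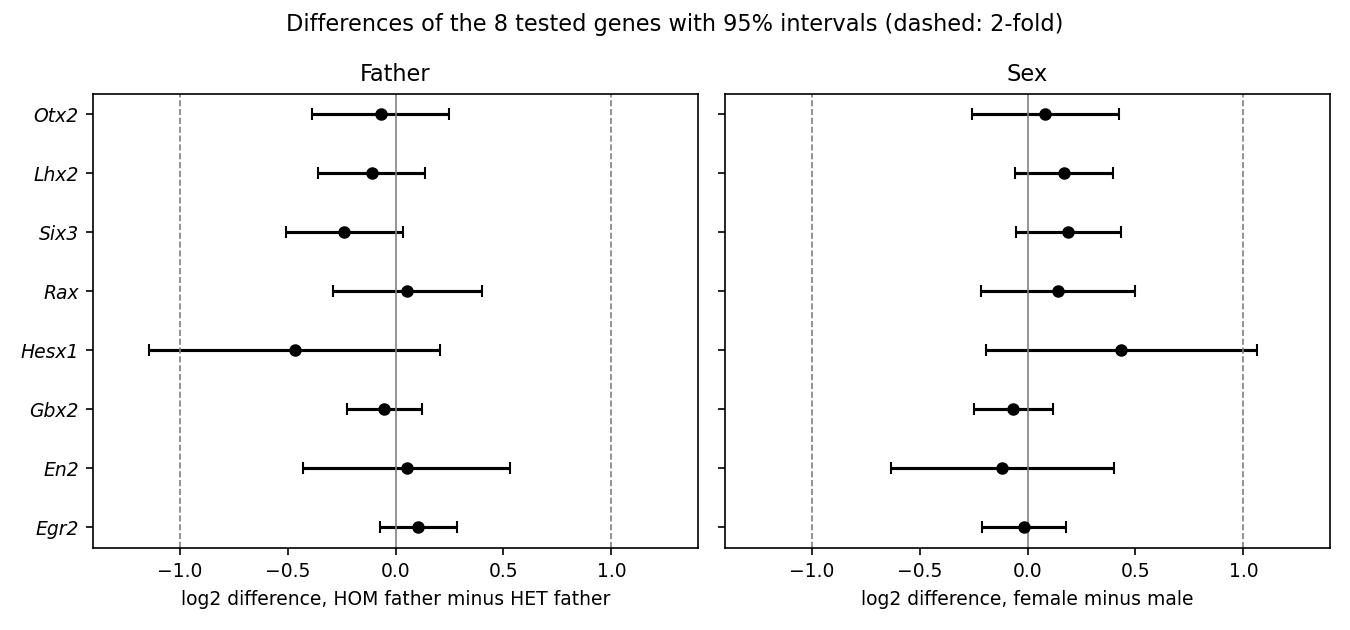
Difference in normalised log2 signal (horizontal axes) for the 8 tested genes, HOM father minus HET father on the left and female minus male on the right, with limma's 95% interval and dashed lines at 2-fold. Every interval includes 0, and that of *Hesx1* reaches past a dashed line in both panels.

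At the midbrain-hindbrain boundary, *Gbx2*, the anterior hindbrain factor that opposes *Otx2*, gave -0.01, 0.18, 0.18 and 0.02 in HOM embryos and 0.01, 0.13, 0.16 and 0.28 in HET embryos. All 8 embryos lay within 0.29 on the log2 scale. The difference of -0.05 had the narrowest interval of the set, -0.23 to 0.12 (limma, adjusted p = 0.656). The signal of *Otx2* minus that of *Gbx2* on the same array, which follows their balance from embryo to embryo but is not a ratio of RNA amounts, was 3.16, 2.46, 2.89 and 2.88 in HOM and 3.19, 2.89, 2.91 and 2.46 in HET embryos. It was lowest in HOM2 and HET4, and its means were 2.85 ± 0.29 and 2.86 ± 0.30 (SD, n = 4 each).

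*En2*, an Engrailed gene of the midbrain and cerebellar primordium, had nearly equal group means, 0.11 in HOM and 0.06 in HET embryos, and very unequal spread. The HET embryos measured -0.02, 0.11, 0.10 and 0.03, a range of 0.13. The HOM embryos measured 0.54, -0.52, 0.34 and 0.08, a range of 1.06, with HOM1 and HOM3 above every HET embryo and HOM2 below. The SD was 0.46 in HOM and 0.06 in HET embryos, and this ratio of 7.54 was at the 99.3rd percentile of the ratios of all tested probes, a description without a test. It rested in part on HOM2: without that embryo, a comparison chosen after seeing the data, the SD was 0.23 in HOM embryos and the ratio 3.76, at the 96.9th percentile. The 10 spots of the probe gave an SD within an array of 0.03 to 0.08, all were well above background, and the spots of HOM2, -0.68 to -0.36, did not overlap those of any other embryo. The father difference was 0.05, with an interval of -0.43 to 0.53 (limma, adjusted p = 0.888). Without HOM2 it was 0.26 (limma, adjusted p = 0.133), and without HOM1 it was -0.09. *En1*, the Engrailed gene that acts first at the isthmus, was well above background in HOM1 alone, at -5.33, where 7 of its 10 spots were above background.

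**Figure D3:**
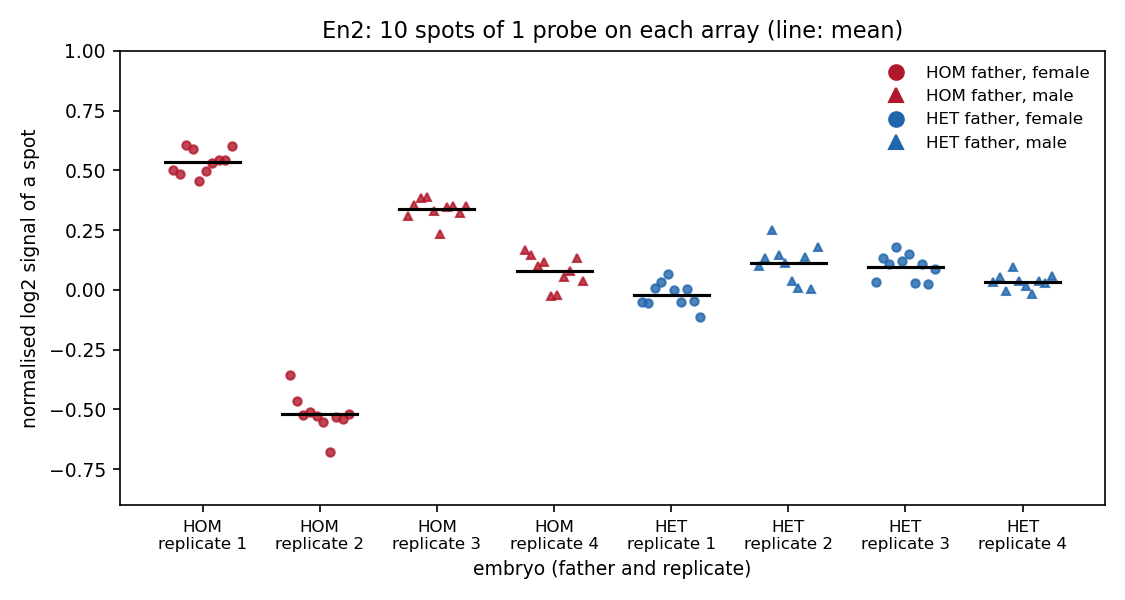
Normalised log2 signal (vertical axis) of the 10 spots of the *En2* probe on each array (points), by embryo, with the mean as a line. Spots of an array lie close together, the HOM embryos are spread from -0.52 to 0.54 and the HET embryos from -0.02 to 0.11.

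A larger spread in HOM embryos was not shared by the set. The SD was larger in HOM embryos in 4 genes and in HET embryos in 4, and over all tested probes it was larger in HOM in 53.5%, with a median ratio of 1.06. *Six3* and *Rax* were at the other end from *En2*, with ratios at the 5.79th and 7.09th percentiles. Without HET4, the lowest HET embryo in both and left out after seeing the data, the SD of *Six3* was 0.08 in HOM and 0.07 in HET embryos, and that of *Rax* was 0.11 and 0.19, so that the wider HET spread of *Rax* did not rest on HET4 alone.

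In the hindbrain, *Egr2*, the zinc finger gene of alternating segments, gave 0.14, 0.23, 0.38 and 0.33 in HOM embryos and 0.30, 0.17, 0.17 and 0.03 in HET embryos. HOM3 and HOM4 were the highest of the 8 and HET4 the lowest. The difference of 0.10, the largest above 0 in the set, had an interval of -0.07 to 0.28 (limma, adjusted p = 0.375).

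No difference between the sexes passed the test either. In limma with father as a covariate, 0 of 8 genes passed at an adjusted p below 0.05 and 0 at the study's limits, compared with 0.121% and 0.0606% of tested probes, and 0 had an unadjusted p below 0.05, compared with 5.22%. Females and males overlapped in all 8 genes, and in all but 1.9% of probes. The differences, females minus males, ran from -0.12 for *En2* to 0.44 for *Hesx1*, and adjusted p-values from 0.914 to 0.980. All 5 tested forebrain genes had a difference above 0, which was 0.08 for *Otx2*, 0.14 for *Rax*, 0.17 for *Lhx2*, 0.19 for *Six3* and 0.44 for *Hesx1*. The 3 other genes lay between -0.12 and -0.02. The same sign was not found in the 15 other forebrain genes tested, of which 4 were above 0 and 11 below, compared with 53.3% of all tested probes above 0, so that nothing is read from it.

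Whether the father difference itself differed between the sexes was tested with an interaction term. No gene passed at an adjusted p below 0.05 in limma, compared with 0.0639% of tested probes, and 1 of 8 had an unadjusted p below 0.05, compared with 4.51%. That gene was *Hesx1*. Its HOM mean was -0.92 in males and 0.04 in females, whereas its HET mean was 0.07 in males and -0.02 in females. The father difference was therefore -0.99 in males and 0.06 in females, and the difference between these, -1.05 with an interval of -1.95 to -0.15, had an adjusted p of 1.00 in limma. Each of these means rests on 2 embryos. HOM3 and HOM4, the males concerned, also share the leading number of their sample identifier, whose meaning is not stated in the sources used here, and HOM3 had the lowest signal of the 8 embryos in 6 of 7 primitive erythroid markers. The part of these in the *Hesx1* values was not tested.

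Among the tested forebrain members, the same embryos were often lowest or highest. HET4 was the lowest of its group in 5 of the 5 tested forebrain genes and HOM4 in 4 of 5, the exception being *Otx2*. HET1 was highest of its group in 4 and HOM1 in 3. In the 15 other forebrain genes tested, HET4 was lowest of its group in 5 and HOM4 in 3, compared with 23.5% and 15.6% of all tested probes, and HET1 was highest in 10 and HOM1 in 3, compared with 29.5% and 19.1%. HOM4 and HET4 are both male and lay at the same position of their slides, while HOM1 and HET1, both female, lay in the other row and had the highest shares of spots above background, 60.8% and 58.5%. The part of sex and position in these ranks was not tested.

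HOM2 stood apart in a different way. It had the lowest *En2* and *Otx2* of the 8 embryos, and of the 15 other forebrain genes tested it was lowest in 7, compared with 16.1% of all tested probes. *Zic1*, a zinc finger gene of the dorsal neural plate, was -0.15 in HOM2 and 0.46 to 1.26 in the other embryos. *Pax6*, a paired box gene of eye and forebrain, was -1.81 and -1.26 to -0.995, and *Wnt8b*, a WNT ligand of the dorsal forebrain, was -3.19 and -2.41 to -1.59. These 3 genes were chosen after their values were seen. HOM2 was also lowest in 6 of 13 other hindbrain genes, 5 of 10 pan-neural markers and 7 of 8 heart markers, so that its low signals were not limited to the brain. Among the 12 other midbrain and isthmus genes tested, HOM2 was lowest in 2 and highest in 3, so these did not fall with *En2* as a set. In the 10 genes of the head organiser and anterior endoderm it was again lowest in 2 and highest in 3. It was high in *Ascl2*, a trophoblast factor, at 1.67 compared with -1.98 to -1.29, and in *Prl8a2* and *Prl3d1*. These lists did not move together, since HOM2 was highest of the 8 embryos in 2 of 6 trophoblast markers and lowest in 2 (*Gata3* and *Krt7*), and highest in 1 of 7 decidua markers and lowest in 2 (*Dcn* and *Wnt4*).

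Genes of trophoblast and decidua differed between the other embryos as well. *Prl8a2* gave 0.29, 4.14, 4.45 and 1.30 in HOM and 1.85, 1.88, -1.42 and -3.99 in HET embryos, and *Prl3d1* gave -1.05, 1.97, 1.12 and 0.39 in HOM and 0.44, 0.03, -2.39 and -3.16 in HET embryos. The summed level of the 6 trophoblast markers, as log2, was 4.25 to 4.85 in HOM and 4.65 to 5.21 in HET embryos, and that of the 7 decidua markers 3.01 to 4.95 and 3.13 to 3.74. The brightest probes weigh most in these sums, which do not measure amounts of tissue. By father, 1 of 6 trophoblast markers was lower (*Gcm1*, -1.07, limma adjusted p = 0.0217) and 0 of 7 decidua markers were called, with 1 at an unadjusted p below 0.05. Over all tested probes 8.69% were lower at an adjusted p below 0.05 in limma, and 34.8% had an unadjusted p below 0.05. The part of such tissue in the values of the patterning genes was not tested. Without HOM2, 0 of the 8 patterning genes were called by father, as with all embryos, so this count does not test the part of HOM2 or of such tissue.

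**Figure D4:**
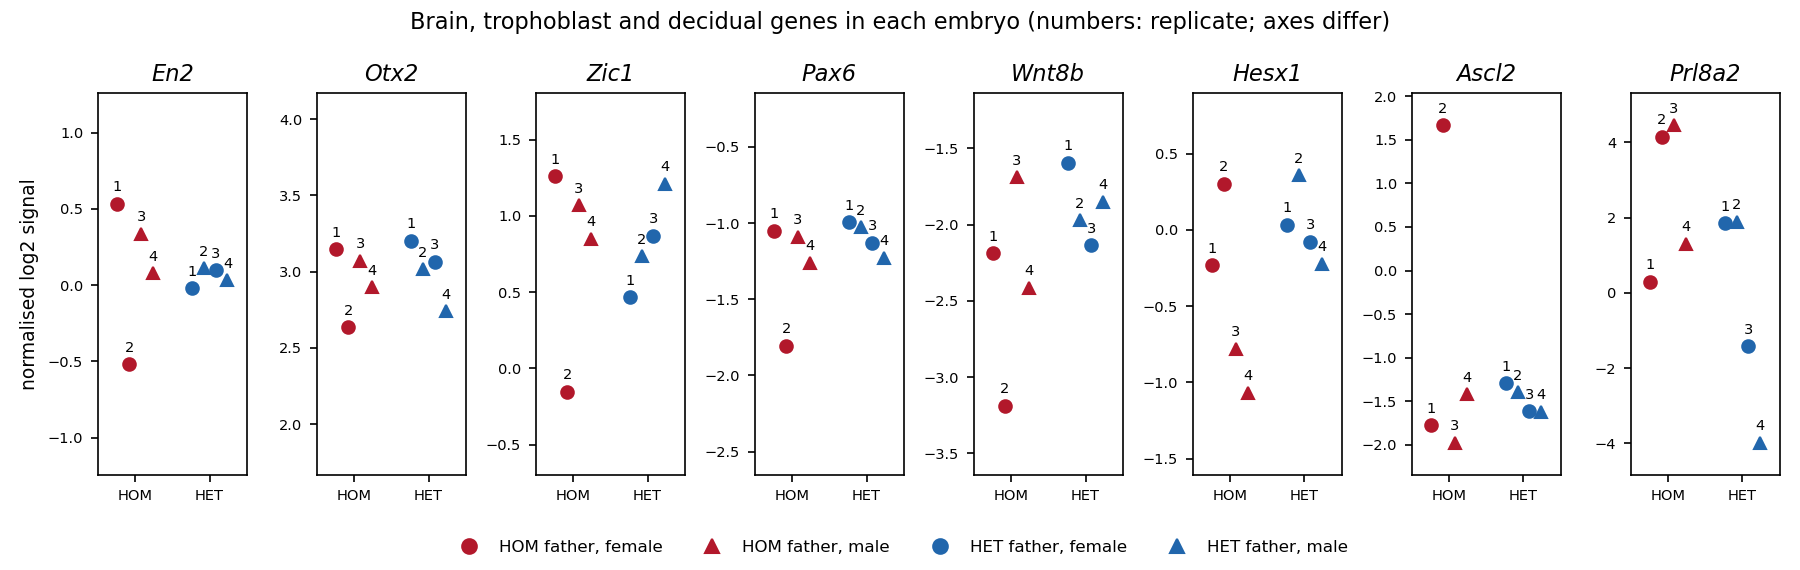
Normalised log2 signal (vertical axes, which differ between genes) of *En2*, *Otx2*, 3 other forebrain genes, *Hesx1*, the trophoblast gene *Ascl2* and the decidual gene *Prl8a2* in each embryo, with colours, symbols and numbers for father, sex and replicate. HOM2 is lowest in *En2*, *Otx2*, *Zic1*, *Pax6* and *Wnt8b*, highest in *Ascl2* and second highest in *Hesx1*.

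Other genes of regional brain patterning were counted in the same fit to set the members in their pathway. Of 55 such genes 50 were tested, and 2 were higher and 1 lower in HOM embryos at an adjusted p below 0.05 in limma, compared with 12.3% and 8.69% of tested probes. None passed the study's limits. Their median difference was 0.00042.

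Of 17 other forebrain genes 15 were tested, and 1 was higher. At an unadjusted p below 0.05 in limma there were 3, of which 2 were lower in HOM embryos, compared with 34.8% of all tested probes. The differences of the 15 ran from -0.90 to 0.39, with a median of -0.05, so the list did not move up as a set. *Vax2*, a homeobox gene of the ventral eye, was higher in HOM embryos, with 2.37, 2.65, 2.36 and 2.19 compared with 2.13, 1.87, 2.12 and 1.89 in HET embryos. The groups did not overlap, and the difference was 0.39 with an interval of 0.13 to 0.64 (limma, adjusted p = 0.0423). This call was lost in 13 of 19 alternative settings, and under median scaling the difference was 0.20 (limma, adjusted p = 0.264).

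Of 14 other midbrain and isthmus genes 12 were tested, with 1 higher and 1 lower. *Lmx1b*, a LIM homeobox gene that maintains isthmic signals, was higher by 0.48 at 1 probe (limma, adjusted p = 0.0408), at -2.86, -3.20, -3.11 and -2.64 compared with -3.30, -3.56, -3.56 and -3.30. A second probe of *Lmx1b* gave a difference of 0.05 (limma, adjusted p = 0.938), so that its probes disagree. The call at the first probe was lost in 13 of 19 settings, and under median scaling the difference was 0.29 (limma, adjusted p = 0.0946). *Fgf17*, an isthmic FGF ligand, had a difference of -1.01, with -4.45, -5.17, -5.22 and -5.24 in HOM and -4.24, -3.66, -4.31 and -3.83 in HET embryos (limma, adjusted p = 0.0165). It was well above background in all 4 HET embryos and in 1 of 4 HOM embryos, HOM1, so that the HOM values are close to the limit of detection. It passed the filter of 4 arrays through the HET embryos, where it was high, so that its call and the count of 1 lower gene support nothing by themselves. With the normexp background correction the difference was -0.48 (limma, adjusted p = 0.00777).

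Of 14 other hindbrain genes 13 were tested, and 0 were called in limma, with 0 at an unadjusted p below 0.05. All 10 genes of the head organiser and anterior endoderm, which secrete or control the WNT, BMP and Nodal antagonists that protect the head, were tested and 0 were called, again with 0 at an unadjusted p below 0.05.

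Markers of the embryo's main tissues were called in at most 2 genes of a list. Of 10 pan-neural markers 1 was higher (*Msi1*, 0.57, limma adjusted p = 0.00214), whereas 7 of the 10 differences were below 0, with a median of -0.13. At an unadjusted p below 0.05 there were 4, of which 3 were lower in HOM embryos (*Sox3* at -0.29, *Nes* at -0.34 and *Ncam1* at -0.14). In HOM embryos 2 of 8 somite markers (*Tbx6* and *Msgn1*), 1 of 8 heart markers (*Myl7*) and 1 of 8 yolk sac markers (*Apoa1*) were lower, with differences of -0.44 to -0.25. Of 7 erythroid markers 0 were called in limma, and 3 had an unadjusted p below 0.05. The latter count was 3 for somite, 1 for heart and 1 for yolk sac markers. Among all tested probes, limma called 8.69% as lower and 12.3% as higher in HOM embryos, and 34.8% reached the unadjusted threshold. With lists this short, no difference in a tissue is read from the marker counts.

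The father differences of the 8 tested genes were then compared between processing settings. *Six3*, *Lhx2* and *Hesx1* were below 0 under all 19 settings tried, whereas *Otx2*, *Rax*, *En2*, *Gbx2* and *Egr2* changed sign under at least 1. *Six3* alone passed the test under any of them, in the 2 settings given above.

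**Figure D5:**
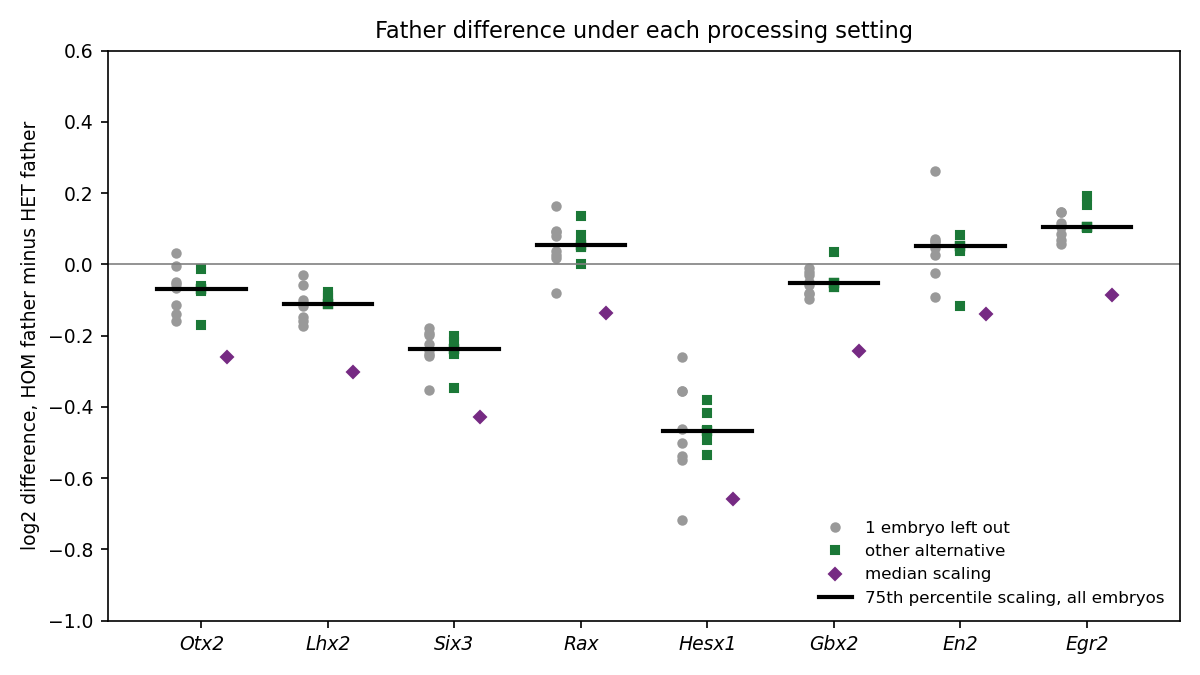
Father difference in normalised log2 signal (vertical axis, HOM minus HET) of the 8 tested genes under the 75th percentile scaling with all embryos (black lines), with 1 embryo left out (grey), under median scaling (purple) and under the other alternatives (green). Median scaling lowered every gene, *Lhx2*, *Six3* and *Hesx1* stayed below 0 throughout, and *En2* ranged from -0.14 to 0.26.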

How the data were processed

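Per the labels, total RNA (0.2 µg) of each embryo was labelled with Cy3 and hybridised to 1 array. The submitters' processing notes name Agilent Feature Extraction 11.0.1.1. As deposited by the authors, the intensity of a spot is its processed signal on a linear scale, with background subtracted and spatial trends removed but not normalised between arrays. The deposited flags, other values of 0 or 1, marked outlier spots, which were left out here (123 to 246 of 59305 per array), and spots well above background. The intensities in the authors' series table were these values, rounded to within 0.5%.

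The log2 of the processed signal minus the 75th percentile of the array was averaged over the spots of a probe. Testing required 4 of 8 arrays with a probe flagged as well above background and not below the 20th percentile of the array, which left 29717 probes. Probes were named by accession through a RefSeq table of GRCm38.p6 (27235 matched), and genes of other lists were taken at their tested probe with the highest mean. Differences were tested with limma 3.58.1 in R 4.3.3 (lmFit and eBayes, two-sided, Benjamini-Hochberg over all tested probes), by father without a covariate, by sex with father as a covariate, and with their interaction, and the fits were tested on simulated data. Embryos were grouped by the labels. Alternatives were quantile and median scaling, normexp background correction (offset 50) on median signals, since mean signals were not used here, 2 other filters, a robust variance, the series table, sex, replicate number, slide position and identifier number as terms, and leaving out each embryo. Text names all 10 members, their antisense transcripts, and genes of other lists at an adjusted p below 0.05. Other list genes are named for values in single embryos, detection or an unadjusted p below 0.05, some after their values were seen. *Cnpy1*, *Otx2os1* and *Prl2c2* matched no probe. The results for 3 genes of these lists are not reported here. The members and lists were chosen with earlier results of these data known. The number of arrays limits the precision.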

Additional observations from a re-analysis of the deposited data

Results flagged for a closer look

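In 2 of 52 groups of 4 embryos, over the 8 tested members and the other genes named with values, 1 embryo stood apart from the other 3 by Dixon's test. For groups chosen without regard to their values, chance gives about 1 in 20, or 2.6 of 52. Some of these genes were named after their values were seen, so the 2 counts cannot be set against each other. For *Fgf17* this was HOM1, at -4.45 compared with -5.24 to -5.17 in the other HOM embryos, and it was the only HOM embryo in which *Fgf17* was well above background. For *Ascl2* it was HOM2, at 1.67 compared with -1.98 to -1.42 in the other HOM embryos. None of the 8 tested members had such an embryo in either group.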

How the results depend on the processing

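Of 328 values of the members over 19 settings by father, 15 by sex and 7 of the interaction, 17 changed sign and 2 passed the threshold newly. The count of members at an adjusted p below 0.05 by father, 0, became 1 (*Six3*) under median scaling and ranged from 0 to 1 when each embryo was left out. By father, median scaling turned *Rax* to -0.14, *En2* to -0.14 and *Egr2* to -0.086, and normexp turned *Gbx2* to 0.036. Slide position as a block turned *En2* to -0.12, a difference drawn from replicates 2 to 4 only, since HOM1 and HET1 were each alone at a position. Leaving out each embryo gave -0.16 to 0.032 for *Otx2*, -0.079 to 0.16 for *Rax* and -0.090 to 0.26 for *En2*. By sex, median scaling turned *Gbx2* to 0.023 and *Egr2* to 0.071, normexp turned *Egr2* to 0.00041, and leaving out each embryo gave -0.0085 to 0.22 for *Otx2*, -0.31 to 0.11 for *En2* and -0.077 to 0.030 for *Egr2*.

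Of the other patterning genes, 2 were higher. That count was 1 under quantile normalisation, with sex as a covariate and with the replicate block, and 0 under median scaling, without the filter, with slide position and with the identifier number as blocks, and 0 to 2 when each embryo was left out. *Vax2* and *Lmx1b* each lost the call in 13 of 19 settings. The count of 1 lower gene became 9 under median scaling, 2 under quantile normalisation and normexp, and 0 without the filter, with probes well above background on all arrays and with the replicate block, and it was 1 to 2 when each embryo was left out. Median scaling turned the split of all calls from 3660 higher and 2583 lower to 2338 and 10352, and the replicate block left 3487 calls, the slide position block 1453 and no filter 3111. With no filter more probes were tested. With the slide position block HOM1 and HET1, each alone at its position, did not enter the father difference, and both blocks added terms to the fit. The part of these in the counts was not tested, nor was the cause of the shift under median scaling.

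Replicate numbers are shared between the groups, but same-numbered embryos did not deviate together (correlations of 0.19, -0.09, -0.13 and 0.15), and with the replicate block 0 members were called. Signals near background limit *Six6*, *En1* and *Fgf17*.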
